A study of Mus musculus with 4 samples.

Results

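The 10 genes described here encode tubulin isoforms, 5 alpha-tubulins (Tuba1a, Tuba1b, Tuba1c, Tuba4a and Tuba8) and 5 beta-tubulins (Tubb2a, Tubb2b, Tubb3, Tubb5 and Tubb6). They were taken by gene symbol from the 24850 named entries of the total RNA-seq tables and the 24992 entries of the polyA RNA-seq tables, and each was listed once in all 4 libraries. RNA came from C2C12, an immortalised mouse myoblast line that fuses into myotubes when serum is withdrawn. MB is the myoblast library, labelled -24 h relative to differentiation medium (DM) and grown in serum-rich growth medium, and MT is the myotube library, labelled 72 h in DM (the study's supplement names another time for its MT RNA-seq). Both were made from ribosome-depleted total RNA by a strand-specific protocol. The knockdown pair, si-hnRNPL and si-NC, was polyA-selected RNA of cells transfected with siRNA against hnRNPL, an RNA-binding protein, or with a negative control siRNA, and then held in DM for 48 h. There was 1 library per condition, so every difference below lies between 2 libraries, has no replicate check and carries no p-value. The 2 pairs differ in RNA selection, library protocol and time in DM, so levels are compared within a pair only.

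Alpha- and beta-tubulin pair into the heterodimer from which microtubules are built. Vertebrates carry several genes for each chain, whose products differ most in the acidic C-terminal tail, the surface that motors, associated proteins and modifying enzymes contact. In skeletal muscle differentiation the microtubule array changes from one centred on the centrosome to one that starts at the nuclear envelope and runs along the myotube. Cells also adjust tubulin mRNA to the amount of free tubulin, through the ribosome-associated factor TTC5, which reads the first residues of the new chain.

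The ends of the beta-tubulin coding sequences are shown because this is where the isoforms part. Each run is 63 bases on the coding strand, 5′ to 3′, and ends in the stop codon, from the mm9 genome with the GENCODE gene models. Capitals mark the bases that differ from the aligned base of Tubb5 or have no aligned base there, since the genes differ in length. The positions are chr17:35971927-35971989 on the minus strand for Tubb5, chr13:34166337-34166399 on the minus strand for Tubb2a, chr13:34219340-34219402 on the minus strand for Tubb2b and chr8:125945520-125945582 on the plus strand for Tubb3.
Tubb5: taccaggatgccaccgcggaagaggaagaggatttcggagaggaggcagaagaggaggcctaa
Tubb2a: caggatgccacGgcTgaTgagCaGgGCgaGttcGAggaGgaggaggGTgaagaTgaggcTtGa
Tubb2b: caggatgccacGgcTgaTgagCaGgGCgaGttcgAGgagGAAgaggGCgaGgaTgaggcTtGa
Tubb3: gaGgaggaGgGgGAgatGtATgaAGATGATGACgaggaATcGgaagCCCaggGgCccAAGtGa

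Of the capitals, 13 in Tubb2a, 16 in Tubb2b and 12 in Tubb3 stand against another base of Tubb5. The other 3, 3 and 18 stand against a gap, whose place within such repetitive sequence is not certain. Bases that Tubb2a and Tubb2b share can therefore be marked differently, and the capitals do not compare Tubb2a with Tubb2b. Over the whole coding sequence Tuba1a and Tuba1b were 98.3% identical, Tuba1b and Tuba1c 97.9%, Tuba1a and Tuba1c 97.1%, and Tubb2a and Tubb2b 96.5%, while all other pairs within either chain lay between 79.2% and 85.9%. The authors kept reads of 36 bases or more. Of all 36-base windows of the mRNA, 66.0% of those of Tuba1a, 69.7% of Tuba1b, 61.7% of Tuba1c, 50.2% of Tubb2a and 41.2% of Tubb2b occurred in the mRNA of another protein-coding gene. The split of reads among Tuba1a, Tuba1b and Tuba1c, and between Tubb2a and Tubb2b, is therefore uncertain, and their sums are given beside the single genes. By contrast 1.80% of the windows of Tubb3, 1.99% of Tubb5 and 1.51% of Tubb6 were shared. In Tuba4a 29.9% were shared, mostly with Stk16, a kinase gene on the opposite strand whose end overlaps that of Tuba4a over 633 bases. Stk16 was listed at 20.0 FPKM in MB, 12.9 in MT, 13.5 in si-NC and 15.9 in si-hnRNPL, and whether its reads entered the Tuba4a values was not tested. Another gene model, Gm20388, spans the Tubb3 locus on the same strand, and its annotated coding transcript shared 0 windows with Tubb3.

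The start of the coding sequence, the stretch read in tubulin mRNA autoregulation, is shown for the same beta-tubulins as the first 4 codons, which differed in DNA between all 4 genes and encoded the same residues in each.
Tubb2a: atgcgcgagatc
Tubb2b: atgcgagagatc
Tubb3: atgagggagatc
Tubb5: atgagggaaatc

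Levels are FPKM, fragment numbers divided by transcript length and library size, each with the 95% interval that Cufflinks gave. That interval describes error within 1 library, and how far it covers the placing of reads shared between genes was not tested. A change is log2 of the ratio of FPKM + 1, and a gene is counted as higher or lower at an absolute change of 0.58 or more, 1.5-fold. Read as counting error alone, the intervals imply 59960176 fragments behind the MB table, 54442423 behind MT, 21341051 behind si-NC and 14592480 behind si-hnRNPL. For the 9 tubulins other than Tuba8 they imply between 1003 fragments, for Tuba4a in si-hnRNPL, and 83077, for Tubb5 in MB. Where an interval holds other error as well, the implied number is too low. In these bulk samples fewer cells of a type and less RNA per cell cannot be told apart.

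All tubulins but Tuba8 were well expressed in every library, and Tuba8 was at or near 0. In MB the order from high to low was Tuba1b, Tubb5, Tuba1a, Tuba1c, Tubb6, Tubb2a, Tubb2b, Tuba4a and Tubb3, and no neighbours had overlapping intervals. In MT it was Tuba1a, Tuba1b, Tubb6, Tubb2a, Tubb5, Tuba1c, Tubb2b, Tuba4a and Tubb3, again with no overlap between neighbours. Tubb5 thus moved from the second place to the fifth. The places of Tuba1a, Tuba1b and Tuba1c, and of Tubb2a and Tubb2b, also rest on the uncertain split of reads. In si-NC the first places were held by Tuba1a and Tuba1b, whose intervals overlapped, and the order went on with Tubb5, Tuba1c, Tubb6, Tubb2a, Tubb2b, Tubb3 and Tuba4a. In si-hnRNPL Tuba1c stood above Tubb5, and the intervals of Tuba4a and Tubb3, the lowest, overlapped.

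**Figure D1:**
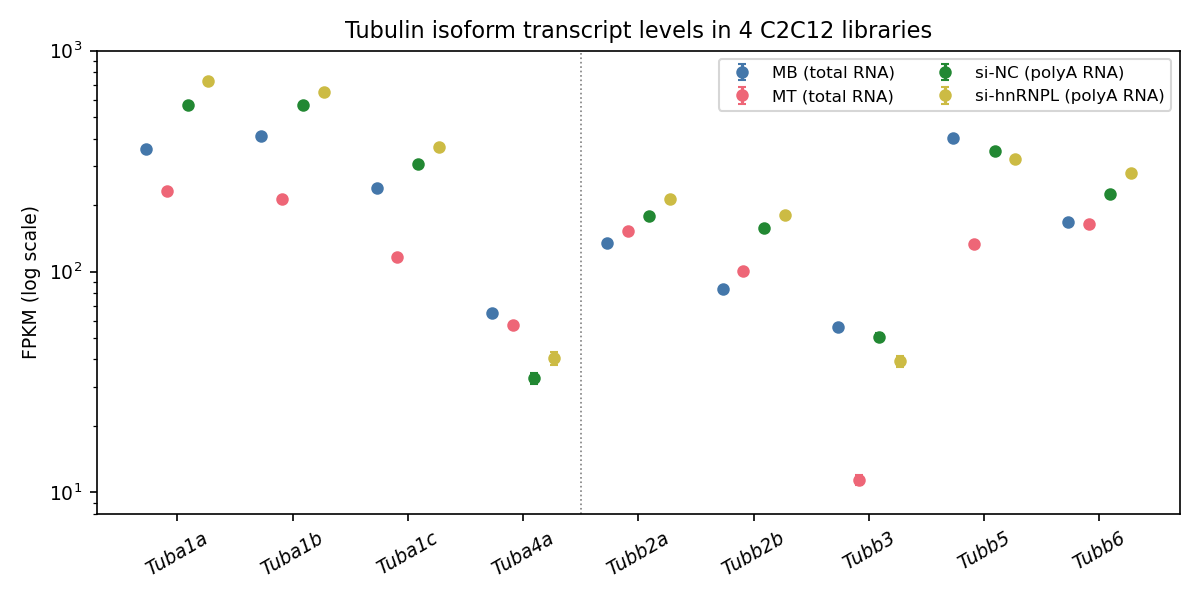
FPKM of the tubulin genes in MB, MT, si-NC and si-hnRNPL on a log axis, 1 point per library with its 95% Cufflinks interval; Tuba8 is not drawn because it was listed at 0 or near it. The points of Tubb3 lie at 56.4 in MB and 11.4 in MT, the widest gap within a pair.

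The transition from MB to MT asks how tubulin expression differs between proliferating myoblasts and myotubes. Of the 10 genes, 5 were lower in MT and none was higher: Tuba1a, Tuba1b, Tuba1c, Tubb3 and Tubb5. Over all named entries 13.7% were lower and 7.81% higher. Of the 10791 named entries that had FPKM values of 1 or more in MB as well as MT, 9 tubulins among them, 28.9% were lower and 12% higher, with a median change of -0.23. The median over the 9 tubulins was -0.63. Relative to the median of those entries the change of Tuba1a was -0.41, past no threshold, so that 4 genes stayed lower, and Tuba4a and Tubb6 took the opposite sign.

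Among the alpha-tubulins, Tuba1b, a widely expressed isoform, was listed at 410 FPKM in MB (95% interval 407 to 414) and at 212 in MT (210 to 215). Its level in MT was 51.7% of that in MB, a change of -0.95. Tuba1a, the isoform prominent in developing neurons, was listed at 360 (356 to 363) in MB and 231 (229 to 234) in MT, a change of -0.63. Tuba1c was listed at 240 (237 to 242) in MB and 116 (115 to 118) in MT, a change of -1.04 and the largest of the alpha chain. Each of these genes was therefore lower in MT with intervals far apart. In the listed values Tuba1a, the least reduced of them, took the lead, an order that rests on the uncertain split of reads. Their sum, which depends on the split of reads only through the different transcript lengths, was 1010 FPKM in MB and 560 in MT, a change of -0.85.

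Tuba4a, an isoform known to be encoded without the C-terminal tyrosine that most alpha-tubulins carry, was listed at 65.2 FPKM in MB (63.9 to 66.5) and 57.5 in MT (56.3 to 58.7). The intervals did not overlap, but the change of -0.18 was short of the threshold, and relative to the median of all expressed genes it was 0.05. Tuba8, the most divergent alpha-tubulin of the set, was listed at 0.0190 in MB, which implies 2.00 fragments, and at 0 in MT, si-NC and si-hnRNPL. No fold is given for it.

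Among the beta-tubulins, Tubb5, the isoform used by most dividing cells, was listed at 404 FPKM in MB (401 to 406) and 134 in MT (132 to 135). The level in MT was 33.1% of that in MB, a change of -1.59. Tubb3, best known as the neuronal beta-tubulin, was listed at 56.4 (55.1 to 57.7) in MB and 11.4 (10.8 to 12) in MT, a change of -2.21 and the largest of the family. These 2 genes were the only beta-tubulins of the set past the threshold, and few of their 36-base windows were shared with other coding genes.

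The other beta-tubulins were not lower by the same rule. Tubb2a was listed at 134 FPKM in MB (132 to 137) and 152 in MT (150 to 154), a change of 0.18. Tubb2b was listed at 83.5 (82.0 to 85.0) in MB and 100.4 (98.8 to 102) in MT, a change of 0.26. Both sat above their MB values with intervals apart, yet below the threshold. The pair Tubb2a and Tubb2b summed to 218 FPKM in MB and 252 in MT, a change of 0.21. Tubb6, a beta-tubulin known to be raised in regenerating and dystrophic muscle, was listed at 168 (166 to 170) in MB and 164 (161 to 166) in MT, with overlapping intervals and a change of -0.04 that became 0.19 relative to the median of expressed genes.

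**Figure D2:**
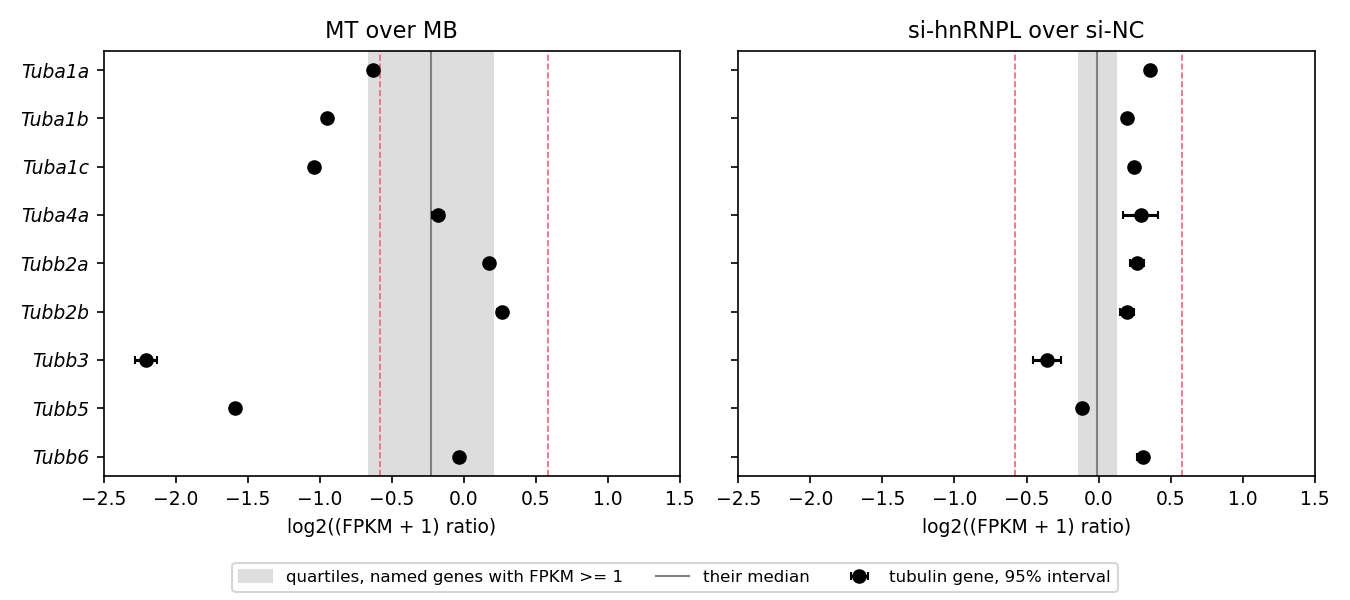
Log2 change of FPKM + 1 for each tubulin gene, MT over MB in the left panel and si-hnRNPL over si-NC in the right, with 95% intervals combined from both libraries. Dashed lines mark the threshold of 0.58, and the grey line and band the median and quartiles of named genes with FPKM of at least 1; Tuba8 is not drawn. In the left panel 5 genes lie below the lower threshold, 4 once the median of -0.23 is subtracted, and in the right panel every gene lies between the thresholds.

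Summed FPKM of the 5 alpha-tubulins was 1075 in MB (1069 to 1081) and 617 in MT (613 to 622), a change of -0.80. That of the 5 beta-tubulins was 846 (841 to 850) in MB and 561 (557 to 565) in MT, a change of -0.59. Without Tubb5 the beta sum changed by -0.05, so among these 5 genes Tubb5 carried nearly all of the difference. This sum leaves out Tubb4b, a beta-tubulin outside the set, listed at 277 FPKM in MB and 91.6 in MT, a change of -1.59. With the other listed beta-tubulins included, the beta sum changed by -0.78. Scaling each library so that its named genes with loci of 300 bp or more had the same total left the alpha sum at -0.23 and the beta sum at -0.02. Under that scaling Tuba1a, Tuba1b and Tuba1c were past no threshold, Tubb2a and Tubb2b were counted as higher in MT, at 0.75 and 0.83, and Tubb3 and Tubb5 were still lower, at -1.71 and -1.02.

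Shares of a gene within its chain do not depend on how a library is scaled. Tubb5 made up 47.7% of the beta sum in MB (47.4 to 48.0) and 23.8% in MT (23.6 to 24.1). Tubb3 made up 6.67% in MB and 2.04% in MT. In their place Tubb6 went from 19.8% to 29.1%, Tubb2a from 15.9% to 27.1% and Tubb2b from 9.87% to 17.9%. Among these 5 genes the beta pool was thus led by Tubb5 in MB, and in MT by Tubb6, Tubb2a and Tubb5 at similar shares. With Tubb4b and the other listed beta-tubulins in the pool, Tubb5 held 35.9% and Tubb4b 24.7% in MB. In the alpha pool the shares of Tuba1a, 33.5% in MB and 37.5% in MT, and of Tuba4a, 6.06% and 9.31%, were higher in MT. Those of Tuba1b, 38.2% and 34.4%, and of Tuba1c, 22.3% and 18.8%, were lower. The shares of Tuba1a, Tuba1b and Tuba1c, and of Tubb2a and Tubb2b, rest on the uncertain split of reads. Whether reads of Stk16 entered the share of Tuba4a was not tested.

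**Figure D3:**
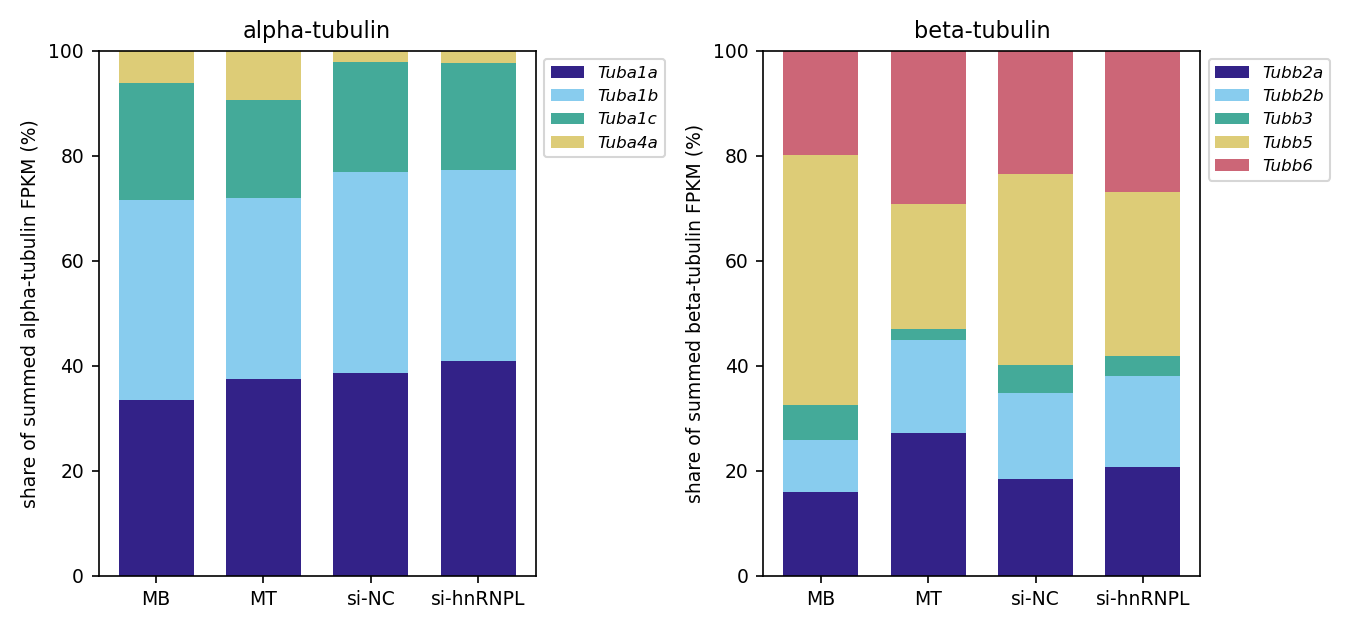
Share, in percent, of each gene in the summed FPKM of the alpha-tubulins and of the beta-tubulins in the 4 libraries, as stacked bars. Tubb4b, outside the set, is not included. Tubb5 takes 47.7% of the beta bar in MB and 23.8% in MT, while the alpha bars keep Tuba1a and Tuba1b as their largest parts in every library.

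The knockdown pair asks what lowering hnRNPL does in differentiating cells. Hnrnpl itself was listed at 95.1 FPKM in si-NC (92.7 to 97.5) and 85.9 in si-hnRNPL (83.1 to 88.7). The intervals did not overlap, and the difference was far short of the threshold, so the mRNA tables show only a small reduction of the target. They hold no protein values, so the amount of hnRNPL protein cannot be read from them. The paper checked the protein separately, on immunoblots of siRNA-treated cells after 48 h in DM, and treats hnRNPL as depleted. In the other pair Hnrnpl was listed at 111 FPKM in MB (109 to 113) and 63.0 in MT (61.8 to 64.2), a change of -0.81.

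None of the 10 tubulins passed the threshold between si-hnRNPL and si-NC, where 0.688% of all named entries were higher and 0.416% lower. Of the 11090 named entries that reached an FPKM of 1 in both, these shares were 1.14% and 0.757%, and the median change was -0.01. Of the 9 expressed tubulins 7 had a higher and 2 a lower value in si-hnRNPL, with a median change of 0.25. For each of the 9 the intervals of the libraries did not overlap.

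The alpha-tubulins other than Tuba8 all had higher values in si-hnRNPL. Tuba1a was listed at 568 FPKM in si-NC (561 to 575) and 728 in si-hnRNPL (719 to 738), a change of 0.36 and the largest rise in value of the family. Tuba1b was listed at 565 (558 to 572) and 648 (638 to 657), a change of 0.20, and Tuba1c at 307 (303 to 312) and 365 (359 to 371), a change of 0.25. The sum of Tuba1a, Tuba1b and Tuba1c went from 1441 FPKM for si-NC to 1741 for si-hnRNPL, a change of 0.27. Tuba4a was listed at 32.9 (30.9 to 34.8) and 40.5 (38.0 to 43.1), a change of 0.29.

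The beta-tubulins were divided. Tubb6 was listed at 226 FPKM in si-NC (221 to 230) and 279 in si-hnRNPL (273 to 285), a change of 0.31. Tubb2a was listed at 178 (174 to 182) and 214 (209 to 219), a change of 0.27, and Tubb2b at 157 (154 to 160) and 180 (176 to 185), a change of 0.20. All of these had higher values in si-hnRNPL, and Tubb2a and Tubb2b together went from 335 to 394 FPKM, a change of 0.23. Tubb3 was listed at 50.7 FPKM (48.7 to 52.7) for si-NC and 39.3 (37.2 to 41.5) for si-hnRNPL, a change of -0.36. Tubb5 was listed at 351 (347 to 355) and 324 (319 to 329), a change of -0.12. Tubb3 and Tubb5 were thus the only tubulins of the set with lower values in si-hnRNPL. They are also the beta-tubulins past the threshold in MT, where Tubb6 had a change of -0.04. The alpha-tubulins past the threshold in MT, Tuba1a, Tuba1b and Tuba1c, went the other way, with higher values in si-hnRNPL.

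The alpha sum was 1474 FPKM for si-NC and 1782 for si-hnRNPL, a change of 0.27, and the beta sum 962 and 1037, a change of 0.11. The share of Tubb5 in the beta sum was 36.5% in si-NC and 31.3% in si-hnRNPL, and that of Tubb3 5.27% and 3.79%. Tubb6 had 23.4% and 26.9%, Tubb2a 18.5% and 20.7%, and Tubb2b 16.3% and 17.4%. In the alpha pool Tuba1a had 38.6% and 40.9%, Tuba1b 38.4% and 36.4%, Tuba1c 20.8% and 20.5%, and Tuba4a 2.23% and 2.27%. The limits given for the shares in MB and MT hold for these as well.

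The other alpha- and beta-tubulin genes in the tables were Tubb4b, Tubb4a, Tubb1, Tuba3a, Tuba3b and Tubal3. Tubb4b, a widely expressed beta-tubulin used in cilia among other places, was listed at 277 FPKM in MB (274 to 280) and 91.6 in MT (89.8 to 93.3), a change of -1.59. In the knockdown pair it was listed at 132 (126 to 139) and 122 (116 to 129), a change of -0.12. With it in the pool, Tubb5 held 35.9% of the beta sum in MB, 20.5% in MT, 32.1% in si-NC and 28.0% in si-hnRNPL, and Tubb4b 24.7%, 14.0%, 12.1% and 10.5%. Tubb4a, another neuronal isoform, was listed at 0.0117 in MB, 0.0390 in MT, 0.128 in si-NC and 0.131 in si-hnRNPL, and Tubb1, the platelet isoform, at 0 in all 4 libraries. Tuba3a, Tuba3b and Tubal3 did not exceed 0.0179 in any library.

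Genes that fold, modify and organise tubulin were read from 7 lists of related genes. Each was counted over the members that had FPKM values of 1 or more in MB as well as MT, to be set against the 28.9% lower and 12% higher, and the median of -0.23, of all such entries. Of the gamma-, delta- and epsilon-tubulins and the gamma-tubulin complex, which start new microtubules, 6 of 10 were lower in MT and none higher, with a median change of -0.64. Tubg1, the gamma-tubulin of the nucleating ring, was listed at 56.9 FPKM in MB and 16.7 in MT, a change of -1.71. Tubgcp2 and Tubgcp3, ring components, changed by -1.17 and -0.92. Relative to the median of all expressed entries 3 of the 10 were lower.

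The folding list holds the chaperonin CCT, prefoldin and the cofactors that assemble the heterodimer. Of its 22 genes 11 were lower in MT and none higher, with a median of -0.62, or 8 lower relative to the median of expressed entries. The CCT subunits Cct7, Cct6a and Cct3 had the largest falls, with changes of -1.11, -1.04 and -1.03, and Cct7 was listed at 181 FPKM in MB and 83.3 in MT. Ttc5, the autoregulation factor, was listed at 16.8 in MB (16.0 to 17.5) and 17.5 in MT (16.7 to 18.3), with overlapping intervals. The change of Ttc5 was 0.06, or 0.29 relative to the median of expressed entries. Any part of TTC5 in the tubulin differences was not tested.

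The enzymes that modify tubulin moved in both directions, with 4 of 17 higher in MT, 5 lower and a median of -0.19. Atat1, the alpha-tubulin acetyltransferase, was listed at 3.90 FPKM in MB and 9.64 in MT, a change of 1.12. Ccdc23, the older symbol of the vasohibin partner needed to remove the C-terminal tyrosine, was listed at 30.3 and 57.3, a change of 0.90. Ttll11, a polyglutamylase, changed by 0.87. Ttl, the ligase that puts the tyrosine back, was listed at 13.9 in MB and 6.80 in MT, a change of -0.94. Tpgs2, a polyglutamylase subunit, changed by -1.21, and Ttll12, a member of the ligase family, was listed at 31.9 and 15.5. The remaining genes past the threshold were Sirt2, a deacetylase, with a change of 0.83, Ttll4 with -0.88 and Hdac6, the main tubulin deacetylase, with -0.64. Relative to the median of expressed entries 4 were higher and 4 lower, and Hdac6, at -0.42, was not counted.

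Of 18 microtubule-associated and end-binding proteins 3 were higher and 6 lower in MT. Relative to the median of expressed entries 3 were higher and 2, Mapre2 and Map6, lower. Dclk1, a doublecortin-like kinase that binds microtubules, was listed at 11.8 FPKM in MB and 78.3 in MT, a change of 2.63. Among the end-binding proteins Mapre3 was listed at 3.72 and 12.3, a change of 1.49, while Mapre2 was listed at 11.7 and 4.35, a change of -1.24. Mtus1 changed by 1.39, Map6, a microtubule stabiliser, by -1.24, and Map1s by -0.78.

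Of 11 stathmins, severing enzymes and depolymerising kinesins 8 were lower in MT and none higher, with a median of -1.77, and all 8 were so relative to the median of expressed entries. Kif2c, a depolymerising kinesin of dividing cells, was listed at 53.0 FPKM in MB and 5.84 in MT, a change of -2.98. Kif18b, a mitotic kinesin, changed by -2.90 and Fignl1 by -2.24. The centrosomal and nuclear-envelope organisers went both ways, 4 of 15 higher and 6 lower, or 5 and 4 relative to the median of expressed entries. Akap6, an anchor at the muscle nuclear envelope, was listed at 1.47 in MB and 20.9 in MT, a change of 3.14, and the nesprin gene Syne1 at 2.37 and 11.3, a change of 1.87. Akap9 changed by 0.98 and Akap8l by 0.75. Cep192 and Cep152, centrosome components, changed by -1.33 and -1.22, and the nesprin gene Syne2 by -0.91.

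In the knockdown pair these lists hardly held a gene past the threshold. Tpgs1, a polyglutamylase subunit, was listed at 17.7 FPKM in si-NC (16.1 to 19.2) and 30.3 in si-hnRNPL (27.7 to 32.8), a change of 0.74. Map2, a microtubule-associated protein of dendrites, was listed at 13.2 (12.5 to 14.0) and 8.51 (7.89 to 9.13), a change of -0.58, and relative to the median it was no longer counted. No other gene of the lists was counted in either direction. The medians were -0.17 over 11 genes of the gamma-tubulin list, -0.01 over 22 of the folding list, -0.004 over 18 enzymes, -0.14 over 20 associated proteins, -0.22 over 12 stathmins, severing enzymes and kinesins, and -0.25 over 15 organisers, against 0.25 for the tubulins.

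**Figure D4:**
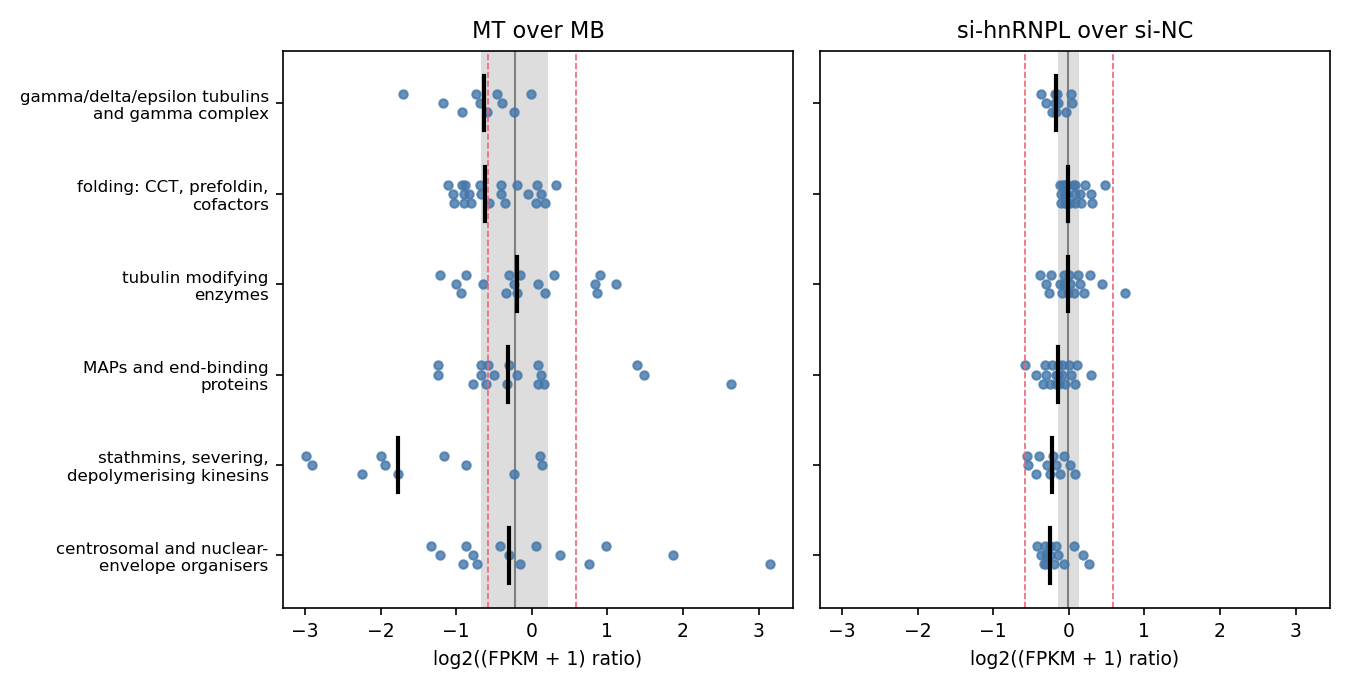
Log2 change of FPKM + 1 for the genes of 6 lists around the tubulins, MT over MB on the left and si-hnRNPL over si-NC on the right: points are genes with FPKM of 1 or more in both libraries, black bars their medians, dashed lines the threshold, and the grey line and band the median and quartiles of all such named entries. The stathmin, severing and kinesin list has the lowest median on the left, -1.77, and 1 point on the right, Tpgs1 at 0.74, lies above the upper threshold.

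The labels of the libraries were read against marker genes. The 7 myotube markers listed in the total RNA pair summed to 16.3 FPKM in MB and 1745 in MT. In the knockdown pair, where Mymk was listed as well, the sum was 2987 for si-NC and 4487 for si-hnRNPL. Of these 8 markers 3 (Ckm, Acta1 and Mylpf) were higher in si-hnRNPL. Of 8 markers of proliferating myoblasts 7 were lower in MT, and their sum was 823 FPKM in MB and 238 in MT. In si-hnRNPL 3 of the 8 (Mki67, Ccnd1 and Top2a) were lower and 1 (Id3) higher, and the sum was 261 against 292 FPKM for si-NC. Both sets differed within the pairs, and their part in the tubulin differences was not tested.

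Because Tubb3 is also a neuronal marker, 8 neuronal genes were read as well. Rbfox3, Snap25, Syp, Syt1 and Elavl3 did not exceed 0.163 FPKM in any library. Nefl, a neurofilament gene, was listed at 38.1 in MB, 0.138 in MT, 8.18 in si-NC and 3.41 in si-hnRNPL, and Nefm at 2.57, 0.0375, 1.28 and 0.578. Stmn2 was listed at 37.9, 10.4, 17.6 and 15.5. These 3 genes were, like Tubb3, lower in MT than in MB. In si-hnRNPL only Nefl, with a change of -1.06, was past the threshold. Nefm changed by -0.53, Tubb3 by -0.36 and Stmn2 by -0.17, the last with overlapping intervals. The other 5 genes of the list were near 0. The fibroblast list summed to 2.65 FPKM in MB, 70.3 in MT, 343 in si-NC and 253 in si-hnRNPL. Dcn made up most of it in MT, si-NC and si-hnRNPL, and Pdgfra in MB. Its part in the tubulin values was not tested. The endothelial list did not exceed a sum of 0.0327 FPKM and the immune list one of 1.13.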

How the data were processed

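The data were 1 total RNA-seq library for MB, 1 for MT, and 1 polyA RNA-seq library each for si-NC and si-hnRNPL cells. Per the study's methods the authors trimmed reads, discarded those shorter than 36 bases, mapped the rest to mm9 with TopHat2 and estimated abundance with Cufflinks. The authors deposited FPKM per gene, the bounds of its 95% interval and the locus, and no read counts. Whether the strand was used in counting is not given in the sources used here. The tables hold no comparisons by the authors.

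Changes were log2 of the ratio of FPKM + 1, counted at an absolute value of 0.58. Their intervals combine both half-widths in quadrature. The implied number of fragments is the square of 2 FPKM over the upper half-width, which takes the interval as counting error alone. No test was possible with 1 library per condition. Duplicate symbols were absent for the 10 tubulins, whose rows were matched by symbol. Loci were compared with the GENCODE models of mm9, and coding sequences and 36- and 100-base windows were read from that genome and annotation. Pseudogenes were not searched. Sequences of the alpha-tubulins, of Tubb6 and of protein chains are not reported here.

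All 10 tubulins are named. From each of 7 lists of related genes the 3 largest rises and the 3 largest falls past the threshold are named, with all other alpha- and beta-tubulins and Hnrnpl. Ttc5, Sirt2, Ttll4, Hdac6, Akap8l, Stk16, Gm20388 and the named markers were added after their values were seen. The tubulins and lists were chosen with earlier results of these data known. Alternatives were pseudocounts of 0.1 and 0.01, centring on the median, upper quartile scaling, scaling named genes to a common total, a fold of 2, an FPKM minimum, non-overlapping intervals and other pools. The common total was taken over named genes with loci of 300 bp or more. The calculations, in Python 3.11.15 with numpy 2.4.6, pandas 2.3.3, matplotlib 3.10.9 and Biopython 1.88, were tested on simulated data in which 200 genes were changed.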

Additional observations from a re-analysis of the deposited data

How the results depend on the processing

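No paired analysis was possible because each condition has 1 library and no result comes from a test. No result changed from higher to lower or the reverse past the threshold. For MT over MB the alpha sum changed by -0.57 when centred on the median of named genes, -0.51 under upper quartile scaling, -0.23 with named genes scaled to a common total and -0.89 without Tuba1a. The beta sum changed by -0.36, -0.31 and -0.020 under the same scalings, by -0.049 without Tubb5 and by -0.78 with the other listed tubulins. The scaling to a common total shifts the log2 ratio of FPKM by 0.57 and the upper quartile scaling by 0.28. Since changes use FPKM + 1, that of a gene with low FPKM shifts by another amount. Scaled to the common total, 2 members were higher (Tubb2a and Tubb2b) and 2 lower (Tubb3 and Tubb5). A fold of at least 2 left 3 lower. Centring or the upper quartile left 4, without Tuba1a, and these scalings and that to a common total turned Tuba4a and Tubb6 to positive values. A pseudocount of 0.01 added Tuba8, whose value rests on 2.00 fragments.

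For si-hnRNPL over si-NC the alpha sum changed by 0.31 under upper quartile scaling, 0.17 scaled to the common total and 0.22 without Tuba1a. The beta sum changed by 0.14 and 0.0045 under these scalings, by 0.22 without Tubb5 and by 0.082 with the other listed tubulins. No setting called a tubulin in this pair. The shifts under scaling follow from the scaling itself, and the cause of the differences in library scale was not tested. Depth limits only Tuba8 and the other tubulins listed near 0. No library could be left out.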

Other observations

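Tubb4b and Tubb5 kept the same ratio within each pair of libraries but not between the pairs. Tubb4b over Tubb5 was 0.686 in MB and 0.685 in MT, and 0.377 in both si-NC and si-hnRNPL. The pairs differ in RNA selection and protocol, and their part in this gap cannot be told apart from that of time in DM.

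The ratio of the summed alpha to the summed beta FPKM was 1.27 in MB and 1.10 in MT. In the knockdown pair it was 1.53 under si-NC and 1.72 under si-hnRNPL. With the other listed tubulins in the sums these 4 ratios were 0.958, 0.946, 1.35 and 1.54.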
